A study of Mus musculus with 28 samples.

Results

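The 10 genes described here encode cytokines, receptors and a feedback inhibitor of the tumor necrosis factor, interleukin-6, interleukin-10 and interleukin-12 systems. Tnf, Il6, Il10 and Il12b encode ligands or a ligand subunit, Tnfrsf1a, Tnfrsf1b, Il6ra, Il6st and Il10ra encode receptor chains, and Socs3 encodes an inhibitor of cytokine signalling. They were chosen by gene symbol, with earlier results of these data known. Shares of these genes called, set beside those of all genes, are therefore descriptions. All 10 were found, each once, among 54427 gene entries, 29066 of them counted at least once in the 28 libraries.

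The study measured bulk 3′ messenger RNA of mouse primary microglia, the resident immune cells of brain tissue grown in culture, in 28 libraries. Cells carried APOE3S/S, labelled Christchurch and tied by the series title to the R136S substitution of APOE3, or APOE3, labelled WT. There were 6 APOE3S/S and 6 APOE3 libraries of tau-treated cells, 3 APOE3S/S and 3 APOE3 libraries of amyloid-treated cells, and 4 APOE3S/S and 6 APOE3 libraries of untreated cells, labelled Control. Both genotypes thus carry a form of APOE3, and the labels give no dose, duration, form of tau or amyloid, animal age or sex. They also do not say whether libraries of a group came from separate animals or cultures, so p-values measure the spread between these libraries, which may be technical.

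Library titles fall into 2 naming series. The SAN title series has 17 libraries and holds all treatments, with 3 libraries per group except for 2 of untreated APOE3S/S cells. The second title series has 11 libraries and holds tau-treated and untreated cells, with 3 libraries per group except, again, for 2 of untreated APOE3S/S cells. Library totals ran from 14464761 to 18683896 counts in the SAN title series and from 15967897 to 27220695 counts in the second title series. Libraries are numbered within a group: tau libraries 1 to 3 are of the second title series and 4 to 6 of the SAN title series, and untreated APOE3 libraries 1 to 3 and untreated APOE3S/S libraries 1 and 2 are of the SAN title series.

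The microglial label was checked against 14 marker genes, whose summed level ran from 7534 to 12530 CPM, the count scaled to a common library total. Csf1r was at 2018 to 3332 CPM and Tmem119 at 0.910 to 5.83 CPM, and Siglech had no count in 24 of the 28 libraries. Summed markers reached at most 80.0 CPM for astrocytes, 288 CPM for oligodendrocytes, 4.71 CPM for neurons and 109 CPM for fibroblasts and vessels. Markers of border macrophages and monocytes summed to 1367 to 1720 CPM in the SAN title series and 2402 to 3726 CPM in the second title series, although Cd209f had no count in any library. Markers of granulocytes and lymphocytes summed to at most 21.7 CPM, nearly all from S100a8, with S100a9, Nkg7 and Retnlg at 0 in all 28 libraries.

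Tumor necrosis factor is made by macrophages and microglia soon after innate stimuli and signals through TNFR1, encoded by Tnfrsf1a and found on most cells, and TNFR2, encoded by Tnfrsf1b and found mainly on immune cells, to NF-kappa B. Interleukin-6 binds its receptor, encoded by Il6ra, and then gp130, encoded by Il6st, which activates JAK kinases and STAT3; STAT3 induces Socs3, whose product blocks gp130 signalling. Il12b encodes the p40 subunit shared by interleukin-12 and interleukin-23, and interleukin-10 acts through Il10ra to restrain the production of such cytokines.

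Promoter windows of 250 bases before the start site were taken from RefSeq on GRCm38.p6 for 8 of the 10 genes; Il10 and Il10ra were not in the table. The windows of the ligand genes Il6, Tnf and Il12b are shown because these genes were higher together with tau in the SAN title series. Each reads 5′ to 3′ on the strand of its gene, with motif matches in capitals.
Il6: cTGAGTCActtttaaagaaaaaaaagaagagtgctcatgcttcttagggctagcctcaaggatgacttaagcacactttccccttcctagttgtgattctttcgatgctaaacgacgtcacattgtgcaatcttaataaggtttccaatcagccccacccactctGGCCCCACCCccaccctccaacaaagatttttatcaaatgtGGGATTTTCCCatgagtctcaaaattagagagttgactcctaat
Tnf: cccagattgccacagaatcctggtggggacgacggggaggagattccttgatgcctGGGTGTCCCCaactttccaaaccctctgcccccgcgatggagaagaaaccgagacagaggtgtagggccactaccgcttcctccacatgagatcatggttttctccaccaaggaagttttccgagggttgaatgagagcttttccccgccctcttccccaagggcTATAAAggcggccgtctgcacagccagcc
Il12b: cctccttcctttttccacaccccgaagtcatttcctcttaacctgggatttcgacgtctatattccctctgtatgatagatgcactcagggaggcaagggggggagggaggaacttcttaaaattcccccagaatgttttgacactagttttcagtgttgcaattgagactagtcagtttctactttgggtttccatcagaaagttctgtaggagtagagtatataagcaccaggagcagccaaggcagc
The Il6 window lies at chr5:30012864-30013113 on the plus strand, the Tnf window at chr17:35202008-35202257 on the minus strand and the Il12b window at chr11:44399813-44400062 on the plus strand. On both strands, 4 motifs were searched: GGG and CC with 5 free bases between them, a form of the NF-kappa B site; ttcnnngaa, a form of the STAT site; tgantca, the AP-1 site; and tataaa, the TATA box, with n for any base. Positions are counted back from the start site to the first base of a match on the strand of the gene. Il6 held NF-kappa B type matches at -85, -44 and -43, the last 2 being overlapping matches on opposite strands, and an AP-1 match at -249. Tnf held an NF-kappa B type match at -194, which reads on both strands, and a TATA match at -29, and Il12b held none of the 4 motifs in this window. The NF-kappa B type motif was in 6 of the 8 windows, against 45.8% of all 32851 promoter windows of the table, and the STAT type motif was in 3 of 8, against 7.02% of all windows. The AP-1 motif was in 1 of 8, against 6.75% of all, and the TATA motif in 1 of 8, against 12.4% of all. These matches describe letters only.

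In GENCODE M21 on GRCm38 all 10 are protein-coding genes. Tnf lies at chr17:35199381-35202007 on the minus strand, Il6 at chr5:30013114-30019981 on the plus strand, Il12b at chr11:44400063-44414033 on the plus strand and Socs3 at chr11:117966079-117970047 on the minus strand. Il6ra overlaps Gm42809 and Il10ra overlaps Gm20612 on the opposite strand, and Il10ra also overlaps Mir7086; whether counting used strand is not given in the sources used here, so reads of these pairs may not be told apart.

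The receptor genes were well detected in every library and the ligand genes spanned a wide range. Because the 3′ kit gives about a tag per transcript, levels are compared between genes in CPM without a length correction. Tnfrsf1b was highest, at a median of 799 CPM over the 28 libraries (514.6 to 1269 CPM), followed by Tnfrsf1a at 196 CPM (166 to 240.5 CPM), Il10ra at 152 CPM (91.1 to 239 CPM), Il6st at 137 CPM (81.2 to 325 CPM) and Il6ra at 95.6 CPM (60.4 to 149 CPM). Socs3 had a median of 37.8 CPM (20.4 to 152 CPM) and Tnf of 20.8 CPM (11.4 to 68.9 CPM). Il6, at a median of 0.412 CPM, ranged from 0.05685 to 8.17 CPM, and Il12b, at a median of 0.213 CPM, had no count in 9 libraries and reached 7.09 CPM. Il10 had 0 to 11 counts per library, no count in 7 of them, and a highest level of 0.649 CPM.

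In the SAN title series, tau-treated APOE3 microglia held more transcript of the 3 pro-inflammatory ligand genes and of Socs3 than untreated APOE3 microglia. Tnf was at 51.95, 58.4 and 68.9 CPM in the tau libraries, against 14.4, 12.3 and 23.4 CPM in the untreated libraries. Il6 was at 2.525, 4.88 and 8.17 CPM in the tau libraries, against 0.05685, 0.271 and 0.198 CPM in the untreated libraries. Every tau library lay above every untreated one for both genes. Il12b was at 4.15, 4.77 and 7.09 CPM in the tau libraries and had no count in any of the 3 untreated libraries. Socs3 was at 80.6, 122 and 115 CPM in the tau libraries, against 26.3, 31.1 and 21.7 CPM in the untreated libraries, again without overlap. In bulk RNA, a change in the number of cells of a type and a change in RNA per cell cannot be told apart.

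In the fit by group and title series, Tnf rose with tau by 1.91 ± 0.25 on the log2 scale (SE; adjusted p = 1.6e-05), Il6 by 4.95 ± 0.62 (adjusted p = 8.8e-06) and Socs3 by 2.07 ± 0.26 (adjusted p = 8.2e-06). Il12b was at least 83.4-fold higher, taking the floor of 3 counts over the untreated group for its 0 counts against 272 counts over the tau libraries (adjusted p = 6.8e-05). With Tnfrsf1b and Il10ra, 6 of the 10 genes passed an adjusted p of 0.05 (edgeR quasi-likelihood F test, Benjamini-Hochberg over all genes), all of them higher with tau, where 21.4% of all 14614 genes tested passed and 12% were higher. The median log2 fold change was 1.30 over the 10 genes and -0.03 over all genes. The same 6 genes passed when each of the 22 libraries of the fit was left out in turn. In the same libraries, summed astrocyte markers were at 47.0 to 62.6 CPM with tau and 32.4 to 38.7 CPM untreated, with 9 or more of 10 markers detected, and granulocyte and lymphocyte markers were at 14.4 to 21.7 CPM with tau and 6.59 to 14.2 CPM untreated, with S100a9, Ly6g and Cd3e at 0. Oligodendrocyte markers were at 229.8 to 240.7 CPM with tau and 184 to 214.5 CPM untreated, and neuron markers at 0.570 to 1.89 CPM with tau and 2.44 to 3.62 CPM untreated. Each of these 4 sums separated the groups. The astrocyte, oligodendrocyte and granulocyte sums rest largely on few genes, as given above. The part of these sums in the results was not tested.

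In the second title series, none of the 10 genes passed the test with tau in APOE3 cells, where 0.616% of all genes did. Tnf was at 20.45, 15.5 and 18.0 CPM in the tau libraries, against 25.1, 16.4 and 14.5 CPM in the untreated libraries. Il6 was at 0.347, 0.231 and 0.5435 CPM in the tau libraries, against 0.518, 0.264 and 0.125 CPM in the untreated libraries. Both genes overlapped between tau and untreated, with log2 fold changes of -0.03 ± 0.25 for Tnf (adjusted p = 0.98) and 0.32 ± 0.64 for Il6 (adjusted p = 0.91). Il12b had 8 counts over the 3 tau libraries and 1 count over the 3 untreated libraries, a ratio of 7.56 (95% counting interval 1.01 to 336). Socs3 was at 35.5, 28.8 and 32.2 CPM with tau and at 23.4, 20.4 and 23.3 CPM untreated. Its groups did not overlap, and the log2 fold change of 0.54 ± 0.25 did not pass across all genes (adjusted p = 0.38). In a fit of the second title series alone Socs3 did pass (adjusted p = 0.049). Marker sums separated these groups too. Astrocyte markers summed to 33.3 to 42.2 CPM with tau and 24.4 to 30.25 CPM untreated. Border macrophage and monocyte markers summed to 2833 to 3085 and 2402 to 2789 CPM, in the same order. Granulocyte and lymphocyte markers summed to 3.71 to 4.33 and 3.02 to 3.68 CPM, and fibroblast and vessel markers to 34.6 to 45.7 and 47.5 to 60.7 CPM. Their part was not tested.

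**Figure D1:**
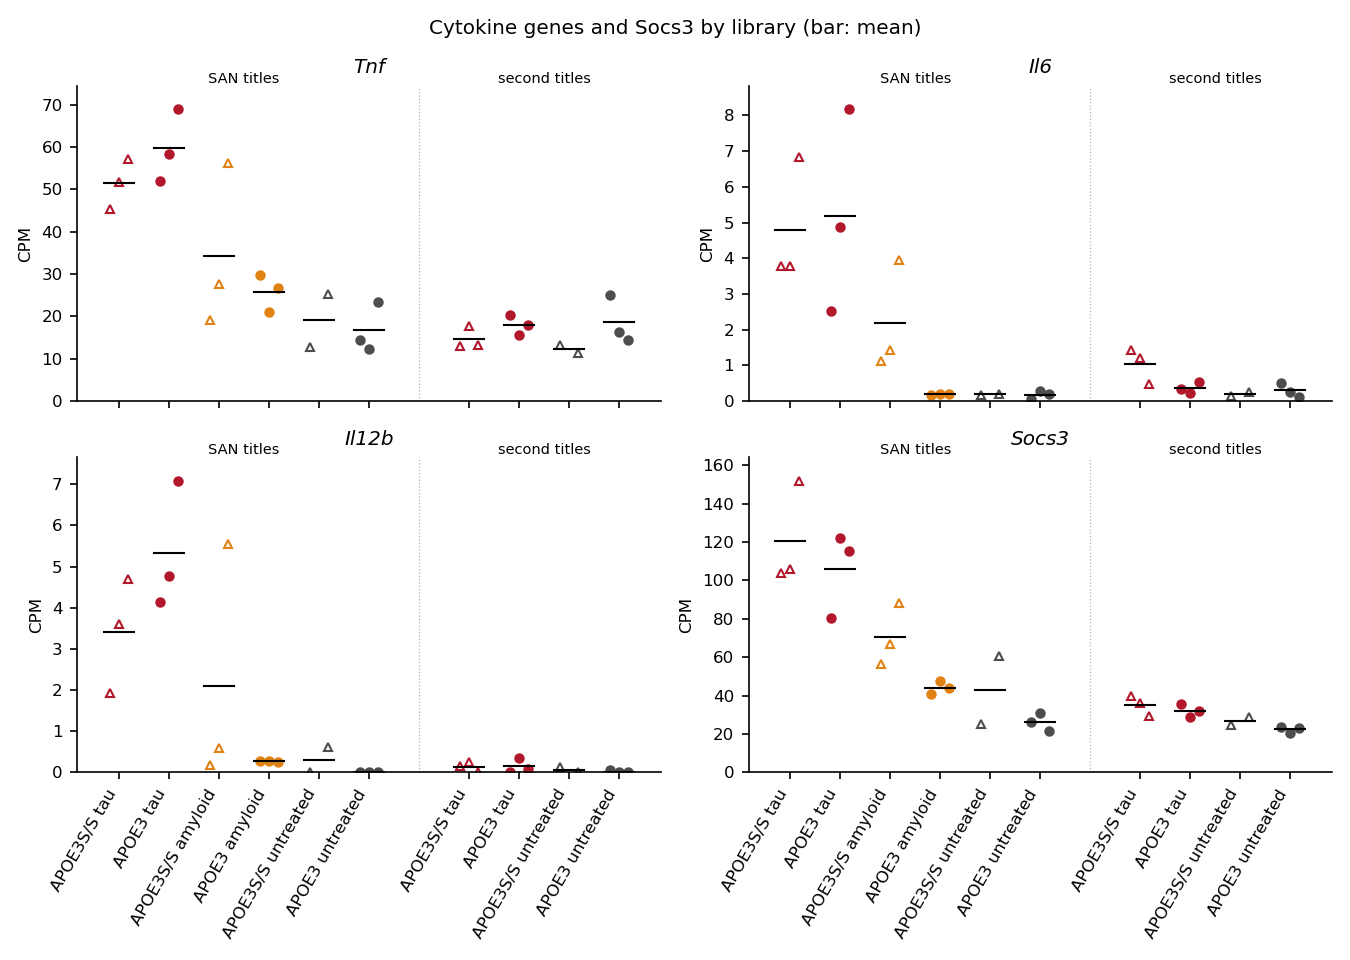
Levels of Tnf, Il6, Il12b and Socs3 in each of the 28 libraries, in CPM on linear axes from 0, by group and title series; triangles are APOE3S/S, circles APOE3, red tau, orange amyloid, grey untreated, and bars the group mean. The tau libraries of the SAN title series stand at 45.3 to 68.9 CPM for Tnf and 80.6 to 152 CPM for Socs3, while those of the second title series stand at 13.0 to 20.45 CPM for Tnf and 28.8 to 39.65 CPM for Socs3.

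The difference between the title series was tested directly, as the tau effect in the SAN title series minus that in the second title series in APOE3 cells. It was 1.95 ± 0.35 on the log2 scale for Tnf (adjusted p = 0.0030), 4.63 ± 0.94 for Il6 (adjusted p = 0.0060), 1.53 ± 0.35 for Socs3 (adjusted p = 0.015) and 0.72 ± 0.16 for Tnfrsf1b (adjusted p = 0.0096). Those 4 of 10 genes passed, where 5.19% of all genes did and 2.63% had the higher effect in the SAN title series, and the same count held with each library left out. The Il6 difference did not pass with limma-voom (4.35, adjusted p = 0.072). None of the 10 passed in APOE3S/S cells, where 0.903% of all genes did, although the differences for Tnf, at 1.29 ± 0.39 (adjusted p = 0.13), and Socs3, at 1.21 ± 0.39 (adjusted p = 0.14), were of the same sign. Each of the next calls leaves 1 untreated APOE3S/S library in a title series, which is then assumed to vary like the other groups. Without untreated APOE3S/S library 2 those of Tnf (1.90, adjusted p = 0.012), Socs3 (2.02, adjusted p = 0.0027) and Tnfrsf1b (0.69, adjusted p = 0.042) passed. Without untreated APOE3S/S library 3, that of Il6st passed instead (-0.93, adjusted p = 0.034).

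**Figure D2:**
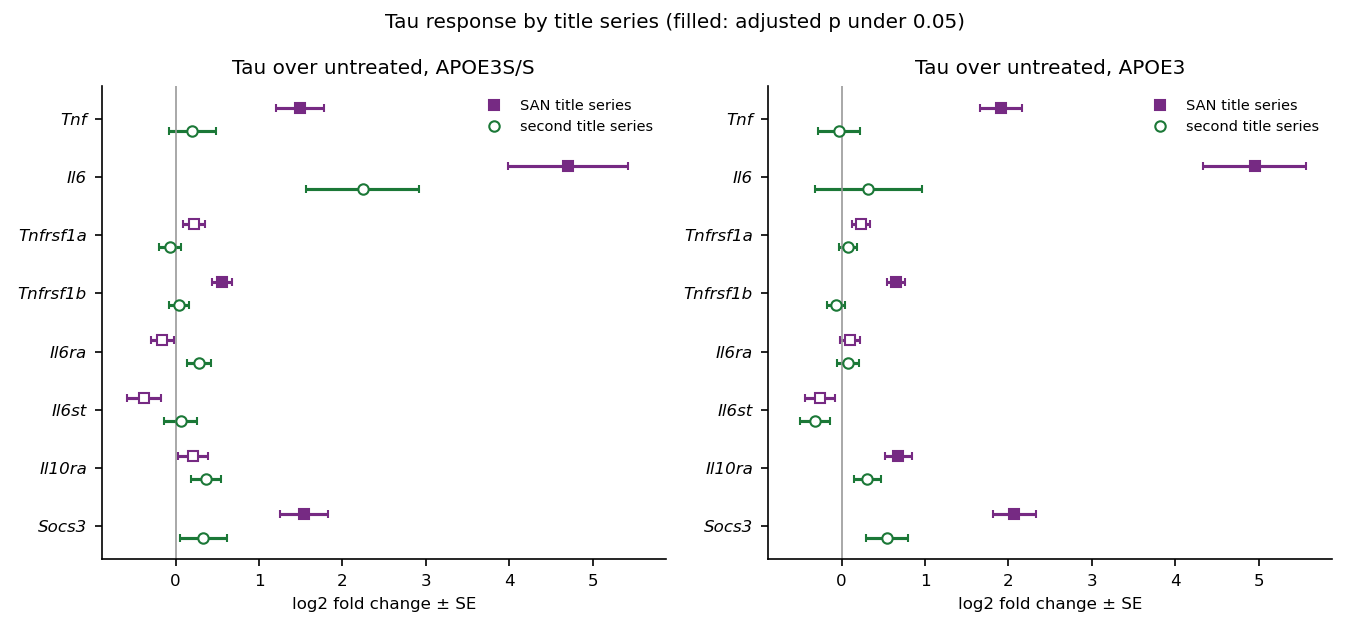
Log2 fold change with tau over untreated, with its standard error, for 8 genes in APOE3S/S cells (left) and APOE3 cells (right), within the SAN title series (squares) and the second title series (circles); filled symbols passed an adjusted p of 0.05. In APOE3 cells Tnf stands at 1.91 in the SAN and -0.03 in the second title series, and Il6 at 4.95 and 0.32; Il10 and Il12b, with few or no counts in some groups, are not drawn.

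Over both title series together, with title series as a term, 4 of the 9 genes tested were higher with tau than untreated in APOE3 cells, where 14.8% of all 13905 genes tested were called and 8.98% were higher. Il6 rose by 2.85 ± 0.66 on the log2 scale (adjusted p = 0.0049), Socs3 by 1.27 ± 0.27 (adjusted p = 0.0027) and Il10ra by 0.50 ± 0.12 (adjusted p = 0.0054). Il12b had 280 counts over the 6 tau libraries and 1 count over the 6 untreated libraries, a ratio of 262 (95% counting interval 46.6 to 10366; adjusted p = 0.00024). Tnf, at 0.87 ± 0.31 (adjusted p = 0.063), did not pass with edgeR and did with limma-voom (1.09, adjusted p = 0.018). Il10 was too low to be tested. Tnf passed without untreated APOE3 library 4 (1.13, adjusted p = 0.010) and without tau APOE3 library 2 (0.99, adjusted p = 0.039). Tnfrsf1b passed without untreated APOE3 library 4 (0.37, adjusted p = 0.035), and Il6st, lower with tau, passed without untreated APOE3S/S library 4 (-0.29, adjusted p = 0.045). Without a title-series term the call of Il10ra was lost (adjusted p = 0.16).

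Tau-treated APOE3S/S cells of the SAN title series also held more Tnf, Il6, Il12b and Socs3 transcript than untreated APOE3S/S cells. Tnf was at 45.3, 51.8 and 57.2 CPM in the tau libraries, against 12.9 and 25.4 CPM in the 2 untreated libraries. Il6 was at 3.785, 3.78 and 6.85 CPM in the tau libraries, against 0.170 and 0.207 CPM in the untreated ones. No tau library overlapped an untreated one for either gene. Il12b was at 1.92, 3.60 and 4.705 CPM with tau and at 0 and 0.622 CPM untreated. Socs3 was at 104, 106 and 152 CPM with tau and at 25.3 and 60.7 CPM untreated. The higher untreated value of Tnf, Il12b and Socs3 came from untreated APOE3S/S library 2 in each case. In these libraries granulocyte and lymphocyte markers summed to 15.6 to 17.4 CPM with tau and 8.11 to 14.1 CPM untreated, oligodendrocyte markers to 233.8 to 243.8 CPM and 210.9 to 231.9 CPM, and fibroblast and vessel markers to 31.0 to 38.2 CPM and 41.8 to 48.5 CPM, with Cldn5 at 0. Their part in the results was not tested.

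Within that title series 5 of the 10 genes passed in APOE3S/S cells, all higher with tau, where 7.21% of all genes passed and 4.02% were higher. Tnf rose by 1.49 ± 0.29 on the log2 scale (adjusted p = 0.0023), Il6 by 4.70 ± 0.72 (adjusted p = 0.00038), Socs3 by 1.54 ± 0.29 (adjusted p = 0.0018) and Tnfrsf1b by 0.55 ± 0.12 (adjusted p = 0.0086). Il12b had 172 counts over the 3 tau libraries and 9 counts over the 2 untreated libraries, a ratio of 12.2 (95% counting interval 6.27 to 27.1; adjusted p = 0.031). Without untreated library 1, which leaves untreated library 2 alone and assumed to vary like the other groups, Il6 still passed, and Tnf (1.04, adjusted p = 0.10), Socs3 (1.01, adjusted p = 0.056), Tnfrsf1b (0.37, adjusted p = 0.26) and Il12b (adjusted p = 0.29) did not. The Il12b call was also lost without APOE3 tau library 6 (adjusted p = 0.051), APOE3S/S tau library 5 (adjusted p = 0.060) or APOE3S/S tau library 6 (adjusted p = 0.12), and with DESeq2 (adjusted p = 0.18).

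In the second title series none of the 10 genes passed with tau in APOE3S/S cells, where 0.109% of all genes did. That share is 16 genes; it was 489 genes with DESeq2, and with a library left out it ran from 0, without tau APOE3S/S library 1 or 2, to 2153, without untreated APOE3S/S library 3, which leaves 1 untreated library. Il6 was at 1.435, 1.20 and 0.478 CPM in the tau libraries, from 71 counts, against 0.135 and 0.263 CPM in the untreated libraries, from 10 counts. Each tau library lay above both untreated ones, with a log2 fold change of 2.24 ± 0.68 (adjusted p = 0.12). Tnf was at 13.0, 17.8 and 13.2 CPM with tau and at 13.3 and 11.4 CPM untreated. Socs3 was at 39.65, 35.85 and 29.6 CPM with tau and at 24.9 and 28.7 CPM untreated. Astrocyte markers of these libraries summed to 43.4 to 43.9 CPM with tau and 29.4 to 41.7 CPM untreated. Neuron markers summed to 1.34 to 2.56 and 2.65 to 3.76 CPM, in the same order, and the part of both sums was not tested. Over both title series, Il6 alone of 9 genes tested passed in APOE3S/S cells (3.46 ± 0.77 on the log2 scale, adjusted p = 0.019), where 3.28% of all genes passed. That call was lost without untreated APOE3S/S library 1 (3.01, adjusted p = 0.095), without tau APOE3S/S library 6 (3.24, adjusted p = 0.055) and without a title-series term (3.84, adjusted p = 0.15). The Il12b rise passed only without untreated APOE3S/S library 3 (adjusted p = 0.043) among the libraries left out, against an adjusted p of 0.067 with all libraries, and Il10ra only without untreated APOE3S/S library 2 (0.47, adjusted p = 0.028).

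Among the receptor genes, Tnfrsf1b, the TNFR2 gene, was higher with tau in the SAN title series in both genotypes, and Il10ra in APOE3 cells. Tnfrsf1b was at 1214, 1162 and 1247 CPM in APOE3 tau libraries of that series, against 724, 793 and 903 CPM in untreated APOE3 libraries, and rose by 0.65 ± 0.11 on the log2 scale (adjusted p = 0.00018). The APOE3S/S libraries of that series held 1198, 1110 and 1206 CPM with tau and 754 and 917 CPM untreated. In the second title series it was at 663.5, 631 and 715 CPM in APOE3 tau libraries and at 804, 655 and 665 CPM in untreated APOE3 libraries, and the 2 groups overlapped (-0.07 ± 0.11, adjusted p = 0.87). Tnfrsf1a, the TNFR1 gene, stayed within 166 to 240.5 CPM in all 28 libraries. Its tau effect in the SAN title series was 0.22 ± 0.13 in APOE3S/S cells (adjusted p = 0.39) and 0.23 ± 0.11 in APOE3 cells (adjusted p = 0.17).

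Il10ra, the ligand-binding chain of the interleukin-10 receptor, was at 214, 234 and 198 CPM in APOE3 tau libraries of the SAN title series, against 132, 158 and 131 CPM in untreated APOE3 libraries. These did not overlap, and it rose by 0.68 ± 0.16 on the log2 scale (adjusted p = 0.0038). In APOE3S/S cells of that series it was at 206, 223 and 209.5 CPM with tau and at 143.5 and 239 CPM untreated. The groups overlapped through untreated library 2, and the effect of 0.21 ± 0.18 (adjusted p = 0.60) became 0.67 without that library, against the 1 that remains (adjusted p = 0.019). In the second title series Il10ra was at 141, 107 and 120 CPM in APOE3 tau libraries and at 102.5, 101 and 96.2 CPM in untreated ones, without overlap but also without a call (0.31 ± 0.16, adjusted p = 0.45).

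Il6ra and Il6st, the chains through which interleukin-6 signals, did not pass with tau in any of the 4 combinations of genotype and title series. For Il6ra these tau effects ran from -0.16 ± 0.14 in APOE3S/S cells of the SAN title series to 0.28 ± 0.14 in APOE3S/S cells of the second title series. For Il6st they ran from -0.38 ± 0.20 in APOE3S/S cells of the SAN title series to 0.06 ± 0.20 in APOE3S/S cells of the second title series. Although not called, Il6st was lower with tau without overlap in APOE3 cells of the second title series (221.8 to 259.8 against 281.3 to 325.3 CPM). It was also lower without overlap in APOE3S/S cells of the SAN title series (81.2 to 126.2 against 127.1 to 162.8 CPM). Il6ra was higher without overlap in APOE3S/S cells of the second title series (77.1 to 93.9 against 60.4 to 73.9 CPM). The other tau groups overlapped with their untreated groups. Il6st also followed the title series. It was at 81.2 to 162.8 CPM in the 17 libraries of the SAN title series and at 163.7 to 325 CPM in the 11 libraries of the second, so that the ranges met without overlapping.

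**Figure D3:**
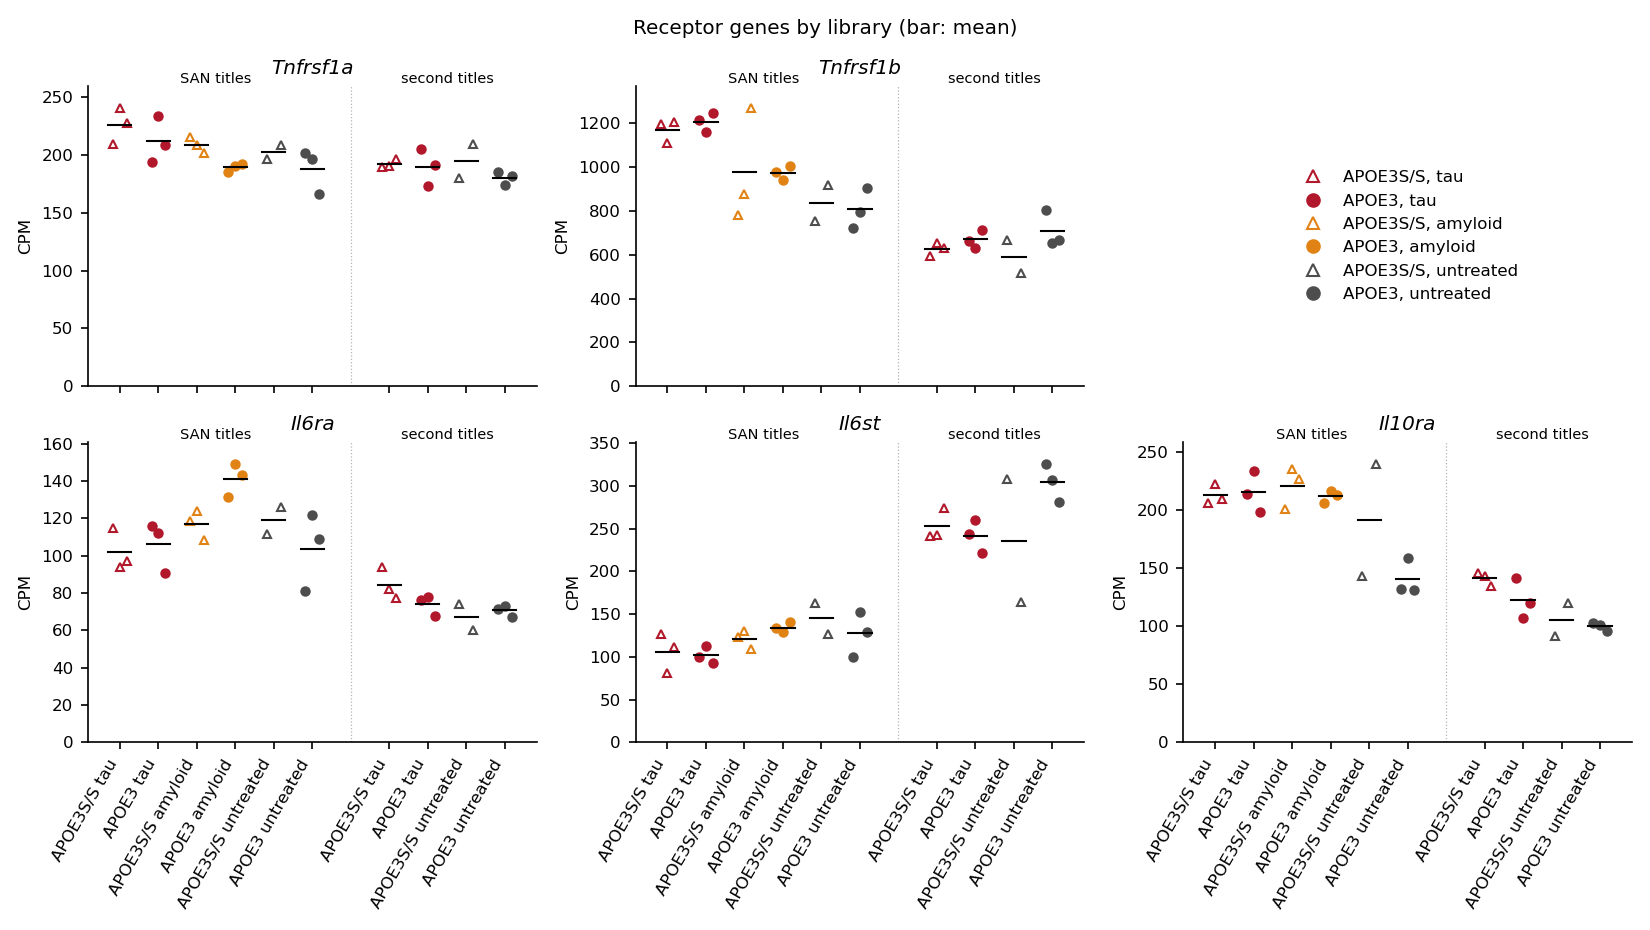
Levels of the 5 receptor genes in each library, in CPM on linear axes from 0, with symbols and bars as in the plot of the cytokine genes. Il6st stands at 81.2 to 162.8 CPM in the SAN title series and 163.7 to 325 CPM in the second, whatever the treatment, and Tnfrsf1b reaches 1110 to 1247 CPM in tau libraries of the SAN title series.

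The title series were also compared within a treatment, in contrasts added after these values were seen. In tau-treated APOE3 cells 8 of the 10 genes differed between the SAN and the second title series, where 21.5% of all genes did and 11.2% were higher. Of these, 7 were higher in the SAN title series, led by Il12b at 272 counts in the SAN and 8 counts in the second title series, a ratio of 43.0 (95% counting interval 21.5 to 101), Il6 at 3.74 ± 0.53 on the log2 scale (adjusted p = 2.4e-05) and Tnf at 1.72 ± 0.25 (adjusted p = 3.3e-05). Il6st was lower by -1.26 ± 0.18 (adjusted p = 3.6e-05). In untreated APOE3 cells 2 of the 10 differed, where 15.4% of all genes did: Il6ra was higher in the SAN title series by 0.49 ± 0.13 (adjusted p = 0.012) and Il6st changed by -1.33 ± 0.18 (adjusted p = 5.0e-05). The Il6ra call was lost without untreated APOE3 library 2 (0.35, adjusted p = 0.095), and Il10ra passed without either untreated APOE3S/S library of the SAN title series (0.42, adjusted p = 0.025 each). In tau-treated cells Il10 passed without tau APOE3 library 1 (adjusted p = 0.047). Untreated Tnf, at 16.7 ± 5.93 CPM in the SAN and 18.7 ± 5.65 CPM in the second title series (SD, n = 3 each), and untreated Socs3, at 26.4 ± 4.71 CPM and 22.4 ± 1.70 CPM in the same order, overlapped between the series.

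Il10 was detected at the limit of these libraries. In the SAN title series it had 21 counts over the 3 APOE3 tau libraries and 3 counts over the 3 untreated APOE3 libraries, a ratio of 6.44 (95% counting interval 1.92 to 33.7), which did not pass across genes (adjusted p = 0.16). APOE3S/S tau libraries of that series had 16 counts and the 2 untreated APOE3S/S libraries 8 counts, a ratio of 1.27 (0.515 to 3.44). In the second title series it had 5 counts over APOE3 tau libraries and 6 over untreated ones. The 3 tau libraries lay above the 3 untreated ones in APOE3 cells of the SAN title series, and the other tau groups overlapped with their untreated groups. Between tau and amyloid in APOE3 cells the ratio was 4.26 (21 against 5 counts, 1.56 to 14.4), again without a call (adjusted p = 0.18).

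The 2 genotypes were compared under the same treatment to ask whether the APOE3S/S allele alters these genes. With tau, none of the 9 genes tested differed between APOE3S/S and APOE3 cells over both title series, where 0.0144% of all genes did. The differences on the log2 scale were -0.26 ± 0.30 for Tnf, 0.31 ± 0.50 for Il6, 0.15 ± 0.26 for Socs3, -0.08 ± 0.12 for Tnfrsf1b and 0.08 ± 0.12 for Il10ra, each with an adjusted p of 1.0 to the digits given. Il12b had 181 counts over 6 APOE3S/S tau libraries and 280 counts over 6 APOE3 tau libraries. Within the title series, with 0.0274% of all genes called in the SAN and 0.0479% in the second, no gene of the 10 passed either. For Il6 in the second title series, 71 counts in APOE3S/S tau libraries stood against 25 counts in APOE3 tau libraries (1.38 ± 0.55, adjusted p = 0.93), and in the SAN title series the log2 difference was -0.11 ± 0.43, of no settled sign (-0.46 to 0.40 with a library left out).

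The tau effect itself did not differ between genotypes for any of the 9 genes tested, where 0% of all genes passed; 284 of 13905 genes had an unadjusted p under 0.05, and DESeq2 and limma-voom also called 0. The difference of tau effects, APOE3S/S minus APOE3, was 0.01 ± 0.45 for Tnf, 0.62 ± 1.05 for Il6 and -0.32 ± 0.40 for Socs3 on the log2 scale. For Il12b it was -4.13 ± 1.62 (edgeR, unadjusted p = 0.018), a value that rests on 12 untreated counts in APOE3S/S and 1 in APOE3 cells. With no filter Il12b passed (adjusted p = 0.013), where 149 of all genes did. Values that miss the threshold do not show equal effects. In untreated cells none of the 9 differed between APOE3S/S and APOE3, where 0.00719% of all genes did, with values from -0.31 ± 0.92 for Il6 to 0.47 ± 0.30 for Socs3 (adjusted p = 0.67), Il12b aside. Untreated Il12b had 12 counts in 4 APOE3S/S libraries and 1 count in 6 APOE3 libraries. Of these 12, 9 counts came from untreated APOE3S/S library 2.

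Amyloid was given in the SAN title series only. None of the 9 genes tested passed against untreated cells in either genotype, where 0% of all 13867 genes passed in each. At an unadjusted p under 0.05 there were 1181 genes in APOE3S/S and 1822 in APOE3 cells, limma-voom called 0 in both, and DESeq2 called 2 genes in APOE3S/S and 296 in APOE3 cells. In APOE3 cells Socs3 was at 40.7, 47.6 and 43.9 CPM with amyloid, against 26.3, 31.1 and 21.7 CPM untreated. The groups did not overlap, with a log2 fold change of 0.73 ± 0.29 (adjusted p = 0.32). Il10ra was at 206, 216 and 213 CPM with amyloid, against 132, 158 and 131 CPM untreated (0.58 ± 0.18, adjusted p = 0.23). Il6ra was at 131, 149 and 143 CPM with amyloid, against 80.9, 122 and 109 CPM untreated (0.44 ± 0.14, adjusted p = 0.24). Neither overlapped, nor did Tnfrsf1b (0.26 ± 0.17, adjusted p = 0.52) or Il12b, at 14 counts with amyloid and 0 untreated. Tnf, Il10, Tnfrsf1a, Il6st and Il6 overlapped. The share of all genes without overlap was not counted, so these separations are descriptions only. Il6 was at 0.166, 0.214 and 0.193 CPM with amyloid, against 0.05685, 0.271 and 0.198 CPM untreated. In these APOE3 libraries microglial markers summed to 8444 to 8937 CPM with amyloid and 7577 to 8238 CPM untreated. Astrocyte markers summed to 44.7 to 80.0 and 32.4 to 38.7 CPM, and oligodendrocyte markers to 221.5 to 228 and 184 to 214.5 CPM, in the same order. Their part was not tested. Without either untreated APOE3S/S library, Il10ra passed in APOE3 cells (0.58, adjusted p = 0.018 each).

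Among APOE3S/S cells, 1 amyloid library stood above the others. Tnf was at 19.2, 27.6 and 56.3 CPM with amyloid, Il12b at 0.170, 0.598 and 5.55 CPM, and Tnfrsf1b at 782, 879.5 and 1269 CPM. Library 3 had the highest value of each. Its Tnf lay within the range of the APOE3S/S tau libraries of that series, and its Il12b and Tnfrsf1b lay above it. Il6 was at 1.13, 1.44 and 3.95 CPM with amyloid, from 20, 24 and 67 counts, against 0.170 and 0.207 CPM in untreated APOE3S/S libraries, from 3 counts each. All 3 lay above both untreated libraries (3.53 ± 0.73 on the log2 scale, adjusted p = 0.58). Without untreated APOE3S/S library 2, Socs3 (1.57, adjusted p = 0.0091) and Il10ra (0.72, adjusted p = 0.034) passed, against 1 remaining untreated library that is assumed to vary like the other groups.

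Between genotypes under amyloid, Il6 had the smallest p of the 9 genes tested. It had 20, 24 and 67 counts in the APOE3S/S amyloid libraries and 3, 4 and 3 counts in the APOE3 amyloid libraries. The groups did not overlap, and the ratio of summed counts was 11.3 (95% counting interval 5.93 to 24.3). The log2 fold change was 3.54 ± 0.61 (adjusted p = 0.30), so that neither Il6 nor any other of the 9 genes tested passed, where 0% of all genes did; 1673 genes had an unadjusted p under 0.05, limma-voom called 0 genes and DESeq2 59. With DESeq2, Il6 passed (adjusted p = 0.0022), and with the edgeR test it passed without either untreated APOE3S/S library (adjusted p = 0.031 each). Socs3 was at 56.45, 66.7 and 88.05 CPM in APOE3S/S amyloid libraries and at 40.7, 47.6 and 43.9 CPM in APOE3 amyloid libraries, also without overlap (0.76 ± 0.28, adjusted p = 0.39). Il10, at 19 against 5 counts and not tested, and Tnfrsf1a (0.23 ± 0.11, adjusted p = 0.42) were higher in APOE3S/S cells without overlap. Il6ra was lower without overlap (-0.18 ± 0.14, adjusted p = 0.60), and the other genes overlapped. The share of all genes without overlap was not counted. The amyloid effect of Il6 did not differ between genotypes by its own test (3.38 ± 1.11, adjusted p = 0.94), where again 0% of all genes passed, 514 genes had an unadjusted p under 0.05 and both other tools called 0.

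Tau and amyloid were set against each other within the SAN title series. In APOE3 cells 4 of the 10 genes were higher with tau than with amyloid, where 7.33% of all 14131 genes tested were called and 4.13% were higher. Tnf was at 51.95, 58.4 and 68.9 CPM with tau and at 29.8, 21.1 and 26.7 CPM with amyloid (1.30 ± 0.33 on the log2 scale, adjusted p = 0.030). Il6 had 262 counts with tau and 10 counts with amyloid (4.80 ± 0.62, adjusted p = 0.0029), and Il12b had 272 and 14 counts in the same order (ratio 19.7, 95% counting interval 11.5 to 36.5, adjusted p = 0.024). Socs3 was higher by 1.36 ± 0.28 (adjusted p = 0.013). None of these 4 genes overlapped between the groups. Without a call, Il10, Tnfrsf1a and Tnfrsf1b were also higher with tau without overlap, and Il6ra and Il6st were lower without overlap. Il10ra overlapped. The share of all genes without overlap was not counted, so these separations are descriptions only. Il6 passed with each of the 17 libraries left out, and Tnfrsf1b passed without amyloid APOE3S/S library 3 (0.40, adjusted p = 0.025). Tnf was lost without any 1 of 5 libraries (adjusted p from 0.073 without amyloid APOE3 library 1 to 0.13 without tau APOE3 library 6, the others being amyloid libraries 2 and 3 and tau library 5), Il12b without the same 5 (0.060 to 0.10) and Socs3 without amyloid libraries 1 or 3 or tau libraries 5 or 6 (0.056 to 0.073). Marker sums also separated these APOE3 groups. With tau and with amyloid, microglial markers summed to 7534 to 7801 and 8444 to 8937 CPM. Border macrophage and monocyte markers summed to 1402 to 1446 and 1546 to 1574 CPM, in the same order. Granulocyte and lymphocyte markers summed to 14.4 to 21.7 and 9.44 to 13.3 CPM, and oligodendrocyte markers to 229.8 to 240.7 and 221.5 to 228 CPM. Their part was not tested.

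In APOE3S/S cells none of the 10 genes passed between tau and amyloid, where 0.149% of all genes did. Socs3 was at 104, 106 and 152 CPM with tau and at 56.45, 66.7 and 88.05 CPM with amyloid, without overlap (0.78 ± 0.27, adjusted p = 0.36). Tnf (0.59 ± 0.33, adjusted p = 0.63) and Il6 (1.15 ± 0.46, adjusted p = 0.43) overlapped through amyloid library 3. Without that library, Tnf (1.14, adjusted p = 0.047), Il6 (1.90, adjusted p = 0.038), Il12b (adjusted p = 0.034) and Tnfrsf1b (0.49, adjusted p = 0.034) passed. These comparisons share their tau libraries with the tau against untreated comparisons above.

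Other genes of the same pathways were taken from 3 lists, here with the 10 genes left out. These lists too were written with earlier results of these data known, so their shares are descriptions. In the SAN title series, with tau in APOE3 cells, 18 of 33 tested genes of tumor necrosis factor signalling were called, 16 of them higher; 14 of 24 genes of the interleukin-6 family and JAK-STAT3 were called, 13 of them higher; and 13 of 17 genes around interleukins 10 and 12 were called, 11 of them higher. Of all genes tested, 21.4% were called and 12% were higher. The median log2 fold changes of the lists were 0.30, 0.64 and 0.52, against -0.03 over all genes. Sod2, a mitochondrial superoxide dismutase induced by NF-kappa B, rose by 2.54 ± 0.24 on the log2 scale (adjusted p = 8.2e-07), and Birc3, an inhibitor of apoptosis, by 1.55 ± 0.17 (adjusted p = 3.3e-06). Pim1, a kinase gene induced by STAT signalling, rose by 1.19 ± 0.16 (adjusted p = 1.7e-05), and Il1rn, the interleukin-1 receptor antagonist, by 2.52 ± 0.24 (adjusted p = 1.0e-06). Irf8, a transcription factor of the myeloid lineage, fell by 0.62 on the log2 scale (SE 0.09, adjusted p = 4.5e-05).

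In APOE3S/S cells of the SAN title series the called genes were 10 of 33, 8 of 24 and 7 of 17 in the same lists, against 7.21% of all genes, with 1 of them, Irf8, lower (-0.44 ± 0.10, adjusted p = 0.0084). Il1rn rose by 2.48 ± 0.28 (adjusted p = 5.1e-05), Sod2 by 2.02 ± 0.27 (adjusted p = 0.00016) and Cish, a STAT-induced inhibitor of cytokine signalling, by 1.53 ± 0.24 (adjusted p = 0.00048). In the second title series 0 genes of the 3 lists were called in APOE3S/S cells and 1 in APOE3 cells. That 1 was Tnfsf14, the ligand LIGHT, which rose by 2.05 ± 0.32 with tau (adjusted p = 0.0046). The difference between the title series in APOE3 cells passed for 8 of 33, 6 of 24 and 1 of 17 genes, which are 24.2%, 25% and 5.88%, against 5.19% of all genes, among them Sod2 (1.73 ± 0.32, adjusted p = 0.0031) and Tnip1, an inhibitor of NF-kappa B signalling (1.14 ± 0.21, adjusted p = 0.0030). Osm, which encodes the gp130 ligand oncostatin M, had a lower tau effect in the SAN title series (-1.27 ± 0.31, adjusted p = 0.021). With tau, Zfp36 was higher in APOE3S/S than in APOE3 cells of the SAN title series by 0.69 ± 0.11 (adjusted p = 0.016). Its product destabilises Tnf messenger RNA. That contrast called 4 of all genes, and 0 without tau APOE3 library 4, so that the Zfp36 call was lost there. Between genotypes with tau, 0 genes of the 3 lists were called in the second title series or over both title series.

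**Figure D4:**
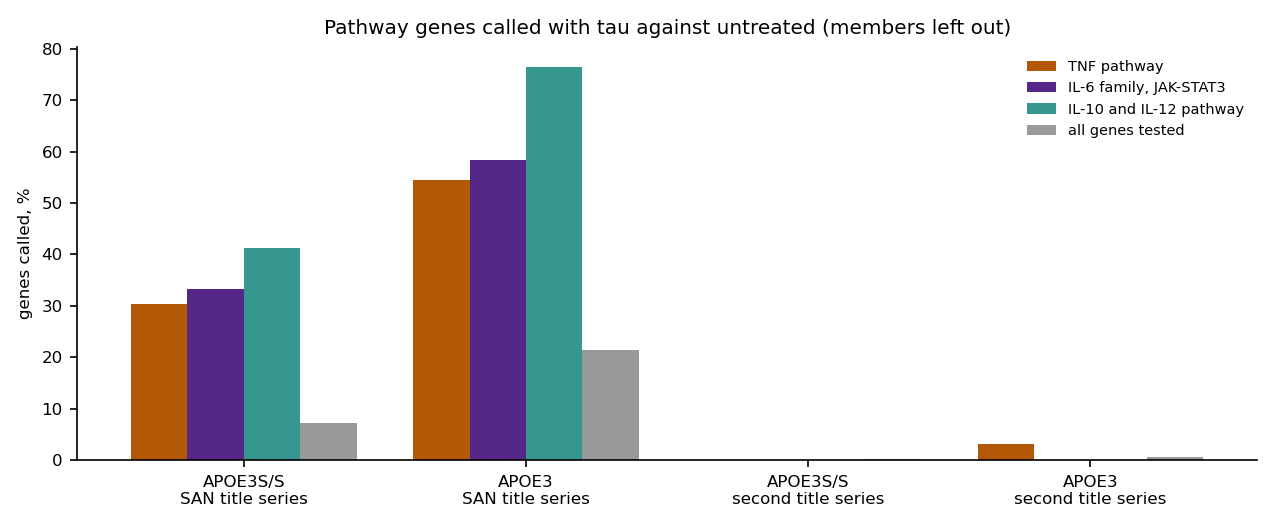
Share of tested genes called with tau against untreated, in percent from 0, for 3 pathway lists without the 10 genes and for all genes tested, by genotype and title series. In APOE3 cells of the SAN title series 54.5%, 58.3% and 76.5% of the list genes were called, against 21.4% of all genes, and in the second title series 3.03%, 0% and 0%, against 0.616%.

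Over both title series, tau in APOE3 cells called 14 of 32, 13 of 22 and 11 of 17 genes of the lists, all but 1 in each higher, against 14.8% of all genes. Tnfsf14 rose by 2.27 ± 0.35 on the log2 scale (adjusted p = 0.00023), Bcl3, a partner of NF-kappa B, by 1.10 ± 0.19 (adjusted p = 0.00061), and Stat3, the main transducer of interleukin-6, by 0.45 ± 0.08 (adjusted p = 0.00079). In APOE3S/S cells 6 of 32, 2 of 22 and 5 of 17 were called, against 3.28% of all genes, with Birc3 at 1.00 ± 0.19 (adjusted p = 0.010), Traf1, an adaptor of TNFR2, at 3.65 ± 0.76 (adjusted p = 0.015), and Il12rb1, a receptor chain for interleukins 12 and 23, at 2.41 ± 0.51 (adjusted p = 0.016). With amyloid, no list gene was called in either genotype, nor did any differ between genotypes under amyloid. Between tau and amyloid in APOE3 cells 12 of 33, 7 of 23 and 4 of 17 list genes were called, against 7.33% of all genes, among them Fas, a death receptor of the same family (1.32 ± 0.24, adjusted p = 0.0092), Pim1 (1.12 ± 0.17, adjusted p = 0.0044) and Il1rn (2.18 ± 0.39, adjusted p = 0.0085). The same contrast called 0 list genes in APOE3S/S cells.

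The genes whose levels ran most like those of the ligands and Socs3 were named from the correlation of log2 (CPM + 0.5) over the 28 libraries among 12043 genes. These libraries share treatment groups and title series, and the values are descriptions. For Tnf they were C1s1 (Pearson r = 0.960), Acsl1 (0.955) and Irak3 (0.948); for Il6, Mcoln2 (0.928), Traf1 (0.916) and Ehd1 (0.915); for Il12b, Foxp4 (0.953), Susd2 (0.949) and Tarm1 (0.949). For Socs3, Ehd1, Bst1 and Acaa1a each had an r of 0.972. For Il10, with its few counts, they were Vrk2 (0.794), Vamp8 (0.789) and Ift22 (0.782).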

How the data were processed

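Messenger RNA of mouse primary microglia was measured with a QuantSeq 3′ forward kit, per the labels' protocols. The authors deposited whole-number counts per gene in 2 tables, of 22 and 11 libraries. Both share 5 libraries, identical in each, and each library was used once, 28 in all. Genome GRCm38 (mm10) and DESeq2 1.38.3 are named in the submitters' processing notes; no source used here names the aligner or counter. Of 60976 rows per table, 6360 without numbers, 81 exact repeats and 108 further rows of a repeated symbol were left out.

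Genotype and treatment came from the labels. Tests on raw counts used the quasi-likelihood F test of edgeR 4.0.16 under R 4.3.3 (TMM scaling, filterByExpr by group, Benjamini-Hochberg over all genes, call at an adjusted p under 0.05). The fits were: 22 tau and untreated libraries with a term for title series; the same with a mean per group and title series; 11 amyloid and untreated libraries of the SAN title series; and all 17 libraries of that series. SEs are log2 fold change over the square root of F. CPM values divide by the library total, and SDs are over libraries. Intervals of count ratios are exact at 95%, conditional on the total, and with the floor of 3 counts cover counting error only.

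Alternatives were RLE scaling, no filter, a stricter filter (1 CPM), DESeq2 1.42.0, limma-voom 3.58.1, subsets of libraries, a replicate block and leaving out each library. Contrasts between title series within a treatment, and the alternatives for contrasts within a title series, were added after the values were seen. The procedure was tested on simulated data. The genes, the lists and the rule for naming were chosen with earlier results of these data known: genes named are the 10, genes from the 3 called with the smallest p in each list (the 10 included) in each comparison described, and the 3 most alike in level. Positions are from GENCODE M21 (GRCm38). Some genes that the rule would name are not reported here.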

Additional observations from a re-analysis of the deposited data

Results flagged for a closer look

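The tau effect in APOE3 cells differed between the title series for 4 genes. The log2 difference, SAN minus second title series, was 4.63 for Il6, 1.95 for Tnf, 1.53 for Socs3 and 0.72 for Tnfrsf1b, by a test of the difference itself. The title series also differ in depth and in summed markers of border macrophages and monocytes and of granulocytes and lymphocytes (6.59 to 21.7 CPM in the SAN and 2.39 to 5.77 CPM in the second title series), and the part of these was not tested.

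In 40 groups of a gene and a treatment, of 4 or 6 libraries each, 4 held a library far from the others, where chance flags about 1 in 20. Untreated APOE3S/S library 2 stood high for Tnf, at 25.4 CPM, and for Socs3, at 60.7 CPM. Tau APOE3S/S library 5 stood high for Il10, at 0.649 CPM, from 11 counts. Untreated APOE3 library 4 stood apart for Il12b, at 0.0518 CPM, from 1 count where the other 5 had 0.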

How the results depend on the processing

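Of 1253 log2 fold changes of the 10 genes under another setting, 1198 kept their call, 48 passed where they had not, 7 no longer passed and none reversed; 33 changes of sign, and 116 among 3902 with a library left out, were of values called under neither setting. Leaving out a library ended 24 calls and added 25. The cause of each move was not tested.

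Counts of the 10 genes called moved as follows. Amyloid against untreated, 0 in both genotypes, had 4 with no filter in each and 2 with both compared groups alone in APOE3 cells. APOE3S/S against APOE3 under amyloid, 0, had 3 with no filter, 1 with DESeq2 and 2 with the compared groups alone. Tau against amyloid had 8 in place of 4 with the compared groups alone in APOE3 cells, where all genes called were 3646 in place of 1036, and 3 in place of 0 with no filter in APOE3S/S cells. The difference between title series in APOE3S/S cells, 0, had 2 with no filter and 1 with DESeq2. Tau against untreated in APOE3S/S cells, 1 over both series, had 4 with no filter, 2 with DESeq2 and with limma-voom, 5 with the SAN title series alone, and 0 with the second alone or with no series term. In APOE3 cells, 4 over both series, it had 1 with the second title series alone, Socs3, 5 with no filter and with limma-voom, 6 with the SAN title series alone, and 3 with no series term and with the compared groups alone, where Il6 and Il12b were not tested. Within the second title series, 1 gene was called with no filter in each genotype in place of 0. With no filter APOE3S/S against APOE3 untreated had 2 and the genotype difference of tau effects 1, Il12b, in place of 0.

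With a library left out, the counts ran from 0 to 2 for tau in APOE3S/S cells, 4 to 6 in APOE3 cells, 1 to 6 in APOE3S/S cells of the SAN title series, 0 to 4 and 1 to 5 for tau against amyloid in APOE3S/S and APOE3 cells, 0 to 2 and 0 to 1 for amyloid in the same order, 0 to 1 between genotypes under amyloid, 0 to 3 for the difference between title series in APOE3S/S cells, and 8 to 9 and 1 to 3 between title series in tau-treated and untreated APOE3 cells. The counts not named did not move.

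All genes called moved too: with no filter 665 were called with amyloid in APOE3S/S and 1008 in APOE3 cells, 739 between genotypes under amyloid, and 75 for the genotype difference of the amyloid effect, in place of 0 each. Tau in APOE3S/S cells called 456 genes, against 945 with DESeq2, 736 with limma-voom, 262 with the compared groups alone and 0 with no series term. With a library left out, all genes called ran from 34 to 836 in that comparison (without untreated APOE3S/S library 1 and 2), from 4 to 1474 for the difference between title series in APOE3S/S cells (without untreated APOE3S/S library 1 and 3), from 412 to 1133 for that in APOE3 cells (without tau APOE3 library 2 and untreated APOE3S/S library 2), from 275 to 1619 for tau in APOE3S/S cells of the SAN title series (without untreated APOE3S/S library 1 and 2), from 11 to 414 in APOE3 cells of the second (without untreated APOE3 library 5 and untreated APOE3S/S library 2), and from 58 to 1608 for tau against amyloid in APOE3 cells (without tau APOE3 library 6 and untreated APOE3S/S library 1).

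No clear pairing of the genotypes by title number was seen. Over 13 pairs the correlation of deviations ran from -0.18 to 0.31, and 5 libraries correlated best with their own number. Deviations were taken from means of 2 or 3 libraries, so this check cannot exclude pairing. With the title number as a replicate block, APOE3S/S against APOE3 called 2 of the genes under amyloid, Il6 and Socs3, 0 with tau and 0 untreated. The same amyloid libraries without the block called both too (edgeR, adjusted p = 0.036 and 0.047), so the block added no call. All genes called were 198 with the block and 352 without it. Il10 and, at the second title series, Il12b are limited by counts.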
